A study of Mus musculus with 12 samples.

Results

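The Hox genes of the HoxA, HoxB, HoxC and HoxD clusters were followed in cultured mouse embryonic fibroblasts. They were taken as every gene whose mouse symbol is Hoxa, Hoxb, Hoxc or Hoxd followed by a number, which gave 39 of the 26305 gene identifiers measured. The cells came from wild-type male C57BL/6 embryos at E13.5 and were grown with 10% serum in 3% oxygen and 5% carbon dioxide. The 4 groups of 3 biological replicates, 12 libraries in all, were sequenced as poly(A)-selected mRNA. One pair of groups received the vehicle DMSO for 96 h or 240 h, and the other received WM-2474 at 10 µM, labelled an inactive control compound, for the same times. No untreated culture and no active compound were among these samples. Wild-type fibroblasts of this kind are a mixture from much of the embryo body, so a level in bulk RNA is an average over cells of different positions, and fewer cells of a type cannot be told apart from less RNA per cell.

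Hox genes encode homeodomain transcription factors that give cells of the embryo their position along the head-to-tail axis and along the limbs. Within each cluster the genes lie in the order in which they are used, from anterior members at the 3′ end to posterior members at the 5′ end, and members of the same number in different clusters (paralogs) descend from a common ancestor. Trithorax and KAT6 proteins keep active Hox genes on, Polycomb proteins keep silent ones off, and retinoic acid activates the anterior genes. Fibroblasts are known to keep a Hox pattern that records the body site from which they were taken.

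In the GRCm38 assembly the 11 HoxA genes span 105.5 kb of chromosome 6 on the minus strand (chr6:52155367-52260880). The 10 HoxB genes span 173.9 kb of chromosome 11 (chr11:96194316-96368254), the 9 HoxC genes 115.7 kb of chromosome 15 (chr15:102921131-103036856) and the 9 HoxD genes 96.9 kb of chromosome 2 (chr2:74668225-74765142), all on the plus strand. Of the 39 genes, 31 had counts high enough to be tested for change among 13499 tested genes.

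Library totals ran from 7313007 to 26019167 counts, and a floor of 3 counts corresponded to 0.120 to 0.425 CPM, the counts of a gene scaled to the TMM-adjusted library total. All 10 fibroblast markers, such as Col1a1 and Vim, were present, with a sum of 31400 to 37300 CPM at 96 h and 48100 to 52700 CPM at 240 h. Most of the sum was Col1a1, Col1a2 and Fn1. Of the 10, 7 rose and 1 fell. Pdgfra went from 279 to 301 CPM at 96 h to 186 to 216 CPM at 240 h. The 6 neural markers summed to 148 to 174 CPM, nearly all of it Nes and Tubb3, which fibroblasts also express, with the neuronal gene Elavl3 at or below 0.148 CPM. Of the 4 tested, 3 fell between 96 h and 240 h and 0 rose. Sox10 was at 2.46 to 4.44 CPM at 96 h and at 0.85 to 2.67 CPM at 240 h. DMSO replicates 1 and 2 at 240 h stood apart: 9 blood markers, most of them of the B lineage, summed to 12.2 and 15.6 CPM there against 1.52 to 5.44 CPM in the other 10 libraries, and Xist, which male cells keep silent, was, in cells labelled male, at 5.24 and 4.48 CPM against 0.00 to 0.925 CPM. The time change of the Hox genes is therefore given with and without those 2 libraries. Markers of minor cell types moved with time beside the Hox results: the 5 endothelial markers summed to 5.10 to 7.94 CPM at 96 h and 2.28 to 4.81 CPM at 240 h (3 of 3 tested fell), the 5 of kidney and gonad mesenchyme, mostly Foxd1, to 13.7 to 31.1 and 6.94 to 14.5 CPM (2 of 2 fell), and the 6 epithelial markers to 1.85 to 5.85 and 1.27 to 2.54 CPM (2 of 2 fell). The 5 muscle markers, nearly all Des, summed to 17.6 to 25.5 CPM at 96 h and 26.6 to 29.2 CPM at 240 h. Des, the only one tested, rose. The myogenic genes Myod1, Myog, Myf5 and Pax7 did not rise, at or below 0.518 CPM at 96 h and 0.0802 CPM at 240 h. Of 3 tested blood markers, 1 fell and 0 rose. Lyz2 was at 1.93 to 2.81 CPM at 96 h and at 0.272 to 1.39 CPM at 240 h. The part of these minor cell types in the Hox results was not tested.

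The level of each gene, given as CPM per kilobase of gene length so that genes can be compared, followed cluster and position. In DMSO at 96 h, Hoxc6, a gene of the thoracic region, was highest at 45.4 ± 3.22 CPM per kb (SD, n = 3), and Hoxb9, which patterns the rib cage, followed at 39.7 ± 1.91. These levels lay at percentiles 87.5 and 85.5 of the 13499 tested genes. Hoxc8 at 23.6 ± 1.58 and Hoxb6 at 23.3 ± 2.97 came next and did not differ beyond their spread. In all, 10 genes reached at least 10 CPM per kb, 19 lay between 1 and 10, and 10 were under 1.

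Each cluster peaked in its middle or just behind it and was low at its posterior end. HoxA peaked at Hoxa5 with 15.8 ± 1.68 CPM per kb and HoxD at Hoxd8 with 9.55 ± 0.569, against Hoxb9 and Hoxc6 in the other clusters. In HoxC the level went from 11.96 ± 2.14 at Hoxc10 to 1.42 ± 0.771 at Hoxc11, 0.361 ± 0.313 at Hoxc12 and 0.347 ± 0.122 at Hoxc13. Summed over members in DMSO at 96 h, HoxB held 130.4 and HoxC 118.2 CPM per kb, while HoxA held 62.2 and HoxD 17.8. The trunk genes of HoxB and HoxC thus carried most of the Hox RNA, and Hoxd11, Hoxd12 and Hoxd13, which pattern the distal limb, were near the floor.

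The other 8 genes were too low to test, and all were posterior or most anterior members. Over all 12 libraries Hoxb1 had 1 count, Hoxa13 and Hoxd12 had 7 each, Hoxd1 had 12, Hoxc12 30, Hoxb13 41, Hoxd13 45 and Hoxd11 64. Hoxb1 is a hindbrain gene and the group 13 genes belong to the tail and the ends of the limbs. None reached 1 CPM per kb in any library, the highest being Hoxd11 at 0.992.

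**Figure D1:**
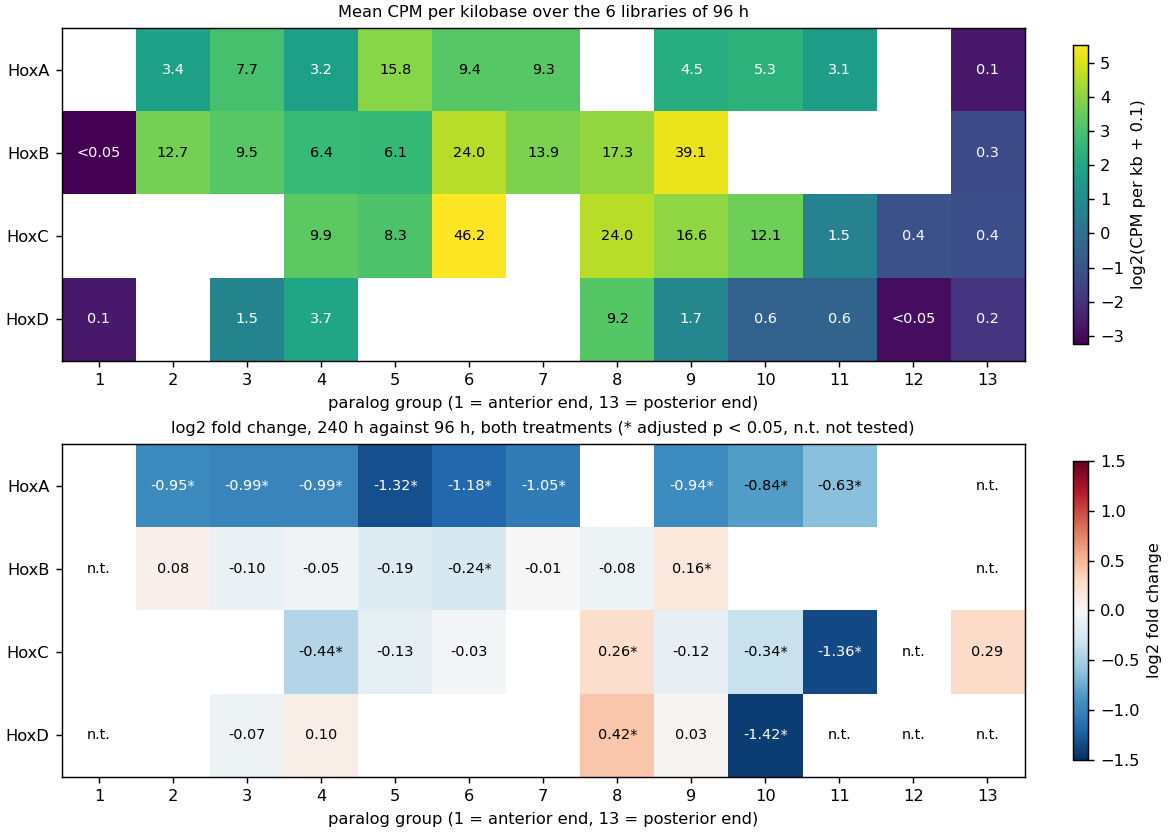
Hox levels and time changes by cluster (vertical) and paralog group (horizontal, 1 anterior to 13 posterior). The upper grid gives mean CPM per kilobase over the 6 libraries of 96 h with colour on a log2 scale. The lower grid gives the log2 fold change of 240 h against 96 h averaged over both treatments, with a star at an adjusted p under 0.05 and n.t. for genes too low to test; a blank cell holds no value. The HoxA row is blue from Hoxa2 to Hoxa11, while most of the HoxB and HoxC rows are pale.

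Between 96 h and 240 h most of the HoxA cluster fell together, by about 2-fold, while few genes of the other clusters changed by that much. Averaged over both treatments, 14 of the 31 tested Hox genes fell, 3 rose and 14 did not pass (edgeR's quasi-likelihood test, Benjamini-Hochberg adjusted p under 0.05), against 23.6% of all tested genes that fell and 23.0% that rose. The median log2 fold change was -0.13 over the tested Hox genes and -0.01 over all tested genes. HoxA gave 9 of the 14 falls from its 10 tested genes, with a median of -0.97. HoxB had 1 fall and 1 rise among 8 tested genes, HoxC 3 falls and 1 rise among 8, and HoxD 1 fall and 1 rise among 5. With scaling by library totals in place of TMM factors the median of all genes moved to -0.13 and the shares of all genes became 44.4% lower and 11.4% higher, and 20 Hox genes were lower and 2 higher.

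The summed HoxA level in DMSO went from 62.2 to 31.1 CPM per kb, whereas HoxB went from 130.4 to 126.2, HoxC from 118.2 to 114.2 and HoxD from 17.8 to 19.9. HoxA genes made up 16.8 to 19.4% of all Hox counts in the 6 libraries of 96 h and 9.39 to 11.8% in the 6 of 240 h. These ranges did not overlap. All Hox genes together were 0.0656 to 0.0729% of the counts of a library at 96 h and 0.0560 to 0.0601% at 240 h.

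In what follows, CPM are given in DMSO replicates 1, 2 and 3 and then in WM-2474 replicates 1, 2 and 3, first at 96 h and then at 240 h. Hoxa5, which patterns the neck and upper trunk skeleton and the lung, was at 26.4, 32.7, 29.7, 28.1, 29.7 and 31.2 CPM at 96 h and at 11.9, 11.4, 10.9, 13.3, 11.7 and 12.6 CPM at 240 h. Every library of 240 h lay below every library of 96 h, by a wide margin. The fall was 2.49-fold (log2 fold change -1.32 ± 0.07 (SE), adjusted p = 1.70e-14 by edgeR's quasi-likelihood test), the smallest p of any Hox gene. Hoxa6, a gene of the thoracic vertebrae, went from 5.02, 6.77, 6.58, 6.32, 6.81 and 7.94 CPM to 2.83, 3.80, 2.77, 3.04, 2.59 and 2.54 CPM. The 2 times did not overlap, and the fall was 2.27-fold (-1.18 ± 0.13, adjusted p = 3.91e-08). Hoxa7, which also acts in the thoracic region, stood at 16.1, 20.3, 16.1, 16.0, 21.8 and 19.0 CPM and later at 8.50, 7.47, 8.79, 8.25, 9.22 and 9.71 CPM. Again no library of 240 h reached the level of 96 h, and the fall was 2.07-fold (-1.05 ± 0.09, adjusted p = 4.47e-10). Among all tested genes, 2.35% passed the test with a fall of at least 2-fold, a size that the 3 central HoxA genes exceeded.

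The anterior genes Hoxa2, Hoxa3 and Hoxa4 fell by nearly the same amount. Hoxa2, which sets the identity of the second pharyngeal arch, was at 5.02, 5.18, 6.88, 4.92, 6.72 and 5.21 CPM at 96 h and at 2.83, 2.72, 2.81, 3.04, 2.36 and 3.93 CPM at 240 h. The times were apart, with WM-2474 replicate 3 the highest at 240 h, and the log2 fold change was -0.95 ± 0.14 (adjusted p = 4.57e-06 by edgeR's quasi-likelihood test). Hoxa3, needed for thymus and parathyroid, went from 15.5, 23.3, 20.4, 17.3, 20.2 and 20.8 CPM to 11.6, 9.10, 9.99, 11.1, 8.38 and 9.02 CPM. DMSO replicate 1 was the lowest at 96 h and the highest at 240 h, yet the times did not overlap, and the log2 fold change was -0.99 ± 0.10 (adjusted p = 2.85e-08). Hoxa4, a gene of the cervical vertebrae, was at 3.66, 4.75, 6.21, 3.32, 5.88 and 5.46 CPM and then at 1.98, 2.17, 2.73, 2.17, 2.13 and 3.01 CPM. The number 1 libraries were lowest at 96 h and still above every library of 240 h, with a log2 fold change of -0.99 ± 0.18 (adjusted p = 5.27e-05).

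**Figure D2:**
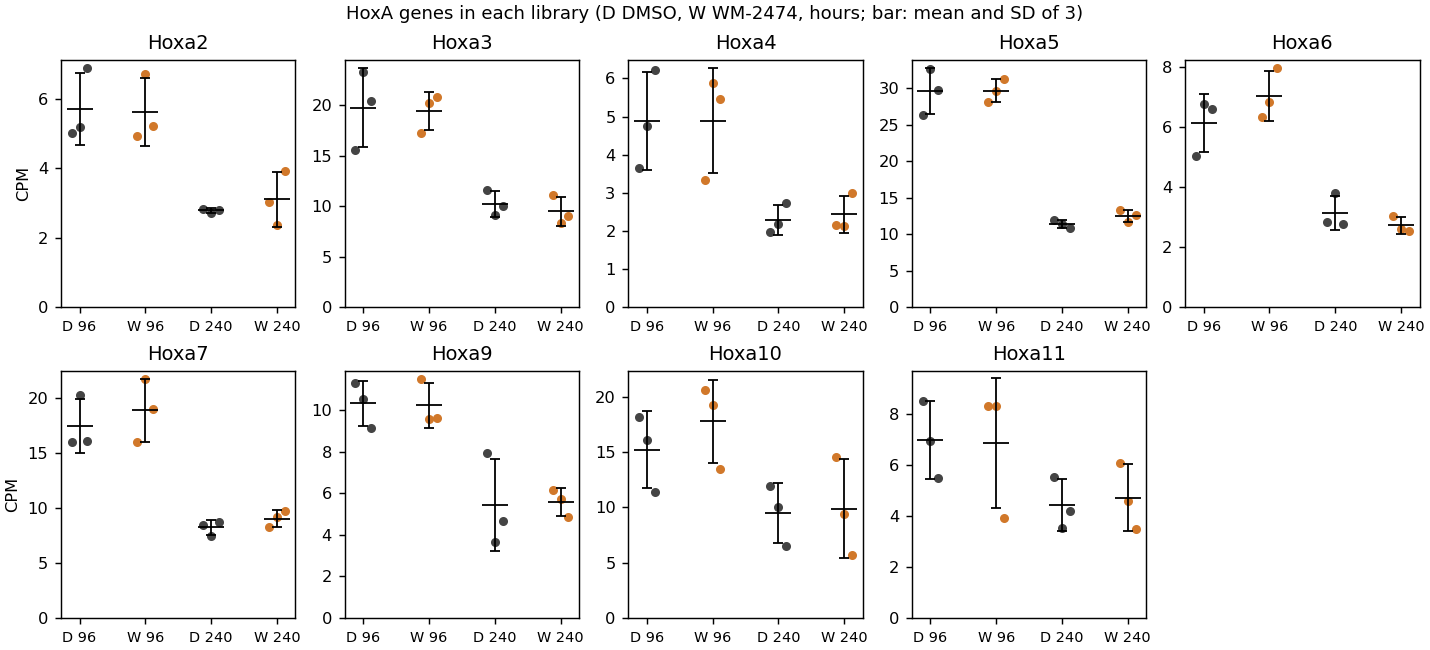
CPM of the HoxA genes from Hoxa2 to Hoxa11 in each library, by group (D DMSO, W WM-2474; 96 or 240 h), with the mean and SD of 3 replicates as a bar. For Hoxa2 to Hoxa7 and Hoxa9 all 6 libraries of 240 h lie below all 6 of 96 h, while Hoxa10 and Hoxa11 overlap.

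The posterior HoxA genes fell with more spread between replicates. Hoxa9, a posterior trunk gene also used in blood progenitors, was at 11.3, 10.5, 9.17, 11.5, 9.58 and 9.65 CPM at 96 h and at 7.93, 3.67, 4.69, 6.18, 5.71 and 4.86 CPM at 240 h. The times did not overlap, and the log2 fold change was -0.94 ± 0.12 (adjusted p = 8.02e-07 by edgeR's quasi-likelihood test). Hoxa10, a gene of the lumbar region and the reproductive tract, went from 18.2, 16.1, 11.4, 20.6, 19.2 and 13.49 CPM to 11.9, 10.1, 6.54, 14.5, 9.45 and 5.67 CPM. Both times shared the range from 11.4 to 14.5 CPM, and the log2 fold change was -0.84 ± 0.25 (adjusted p = 0.0213). Hoxa11, which patterns the forearm and lower leg, was at 8.50, 6.94, 5.48, 8.31, 8.32 and 3.93 CPM and then at 5.52, 3.53, 4.17, 6.08, 4.57 and 3.47 CPM. Its times overlapped too, with a log2 fold change of -0.63 ± 0.20 (adjusted p = 0.0181). The call of Hoxa10 was lost without replicate 1 of either group at 96 h, and without DMSO 240 h replicate 3 or replicate 2 of WM-2474 at 240 h, at adjusted p up to 0.0683. That of Hoxa11 was lost without DMSO 240 h replicate 3, and with that library as the lone DMSO one at 240 h, at adjusted p up to 0.0668.

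The 7 HoxA genes from Hoxa2 to Hoxa9 with no overlap were 7 of the 8 tested Hox genes whose libraries were lower at 240 h without overlap, a pattern that 12.1% of all tested genes showed. Hoxb13, too low to test, also had lower values in every library of 240 h. Each of the 7 passed in DMSO alone and in WM-2474 alone, and each kept its call in all 21 alternative settings of the averaged comparison. Hoxa10 and Hoxa11 did not pass in either treatment alone, but both passed in both under the replicate block and with the libraries numbered 1 and 2 only, among other alternatives. Over all 22 alternatives the lowest adjusted p was 4.62e-05 in DMSO and 1.46e-06 in WM-2474 for Hoxa10, and 0.00348 and 0.00483 for Hoxa11. A fit with DMSO replicate 3 as the lone DMSO library at 240 h leaves out the 2 libraries with blood markers and Xist. The median log2 fold change of the tested Hox genes was then -0.12 in the averaged comparison and -0.06 in DMSO alone. With all libraries it was -0.13 and -0.12. Over all tested genes it was -0.0035 and -0.0036 in that fit. Among the 31 genes tested in the main fit, Hoxa4 and Hoxc10 lost their calls in DMSO and Hoxc11 gained one. Hoxa11 and Hoxb6 lost theirs in the averaged comparison.

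To show where these genes start, a stretch of 120 bases upstream of the annotated start is printed for an anterior, a central and a posterior HoxA gene that fell, from the RefSeq promoters of the GRCm38.p6 assembly, with every CpG in capitals. CpG-rich promoters are the usual target of Polycomb and Trithorax proteins.
Hoxa2 (chr6:52164832-52164951, minus strand): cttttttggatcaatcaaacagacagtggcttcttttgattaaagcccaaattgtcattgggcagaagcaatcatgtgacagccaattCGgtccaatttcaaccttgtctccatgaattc
Hoxa5 (chr6:52204588-52204707, minus strand): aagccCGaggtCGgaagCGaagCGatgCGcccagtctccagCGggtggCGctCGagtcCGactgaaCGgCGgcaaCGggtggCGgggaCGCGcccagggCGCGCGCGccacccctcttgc
Hoxa9 (chr6:52227371-52227490, minus strand): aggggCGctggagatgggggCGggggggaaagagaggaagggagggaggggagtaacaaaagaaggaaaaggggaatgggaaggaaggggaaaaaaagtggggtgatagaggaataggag

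The 3 stretches held 1, 19 and 2 CpGs. Over the full RefSeq windows of 300 bases, the 9 windows of the 8 matched HoxA genes that fell held 4 to 29 CpGs and the 8 windows of other tested Hox genes held 4 to 22. All 24 Hox windows had a median of 14.5 CpGs and all 32851 promoter windows one of 7. A CCAAT box, searched as CCAAT on both strands, was in 4 of the 9 HoxA windows (44.4%), in 6 of the 8 other Hox windows (75.0%) and in 37.4% of all windows. The TGACAG motif bound by Meis proteins, also on both strands, was in the Hoxa2 and Hoxa3 windows, that is in 22.2% of the 9, in 0 of the 8 and in 19.2% of all windows. Only 22 of the 39 Hox genes had a window, so these shares describe part of the family.

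Against their own paralogs the same HoxA genes had fallen, a comparison within each library that does not depend on the scaling of libraries. It was chosen after the values had been seen. The log2 ratio of Hoxa5 to the mean of Hoxb5 and Hoxc5 was 0.87 ± 0.11 (SD, n = 6) at 96 h and -0.26 ± 0.21 at 240 h, a difference of -1.14, with no overlap (two-sided exact permutation test, p = 0.002165, the smallest that 6 against 6 libraries allows; 0.003247 adjusted over 9 ratios). The same p was reached by Hoxa2 against Hoxb2 (-1.02), Hoxa3 against Hoxb3 and Hoxd3 (-0.86), Hoxa6 against Hoxb6 and Hoxc6 (-1.03), Hoxa7 against Hoxb7 (-1.04) and Hoxa9 against Hoxb9, Hoxc9 and Hoxd9 (-0.95). Hoxa4 against Hoxb4, Hoxc4 and Hoxd4 differed by -0.88 with overlapping libraries (exact permutation p = 0.004329, adjusted 0.005566). These p-values treat the 12 libraries as separate, although same-numbered libraries of 96 h deviated together, and are then too small. With same-numbered libraries of a time averaged first, an alternative chosen after seeing the data, the 7 genes named here gave no overlap and an exact permutation p of 0.1, the smallest that 3 against 3 values allow. From group 2 to group 9 HoxA members lost ground to their paralogs by 1.81- to 2.20-fold.

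At the posterior end the ratios of HoxA genes to their paralogs did not separate the times. Hoxa10 against Hoxc10 and Hoxd10 differed by 0.07 between the times (exact permutation p = 0.669), and Hoxa11 against Hoxc11 by 0.96 (exact permutation p = 0.149). Hoxc11 was at few counts, and its ratio at 240 h had an SD of 1.43 over 6 libraries. Hoxd10 was low too, at 2 to 7 counts in each library of 240 h, yet weighed as much as Hoxc10. Averaged log2 fold changes were -0.84 for Hoxa10, -0.34 for Hoxc10 and -1.42 for Hoxd10. The ratio of Hoxa10 to Hoxc10 alone was not tested. The tested posterior genes of groups 9 to 13 included 6 falls and 1 rise among 10, groups 1 to 4 included 4 falls among 10, and the remaining 4 falls and 2 rises were among the 11 genes of groups 5 to 8.

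**Figure D3:**
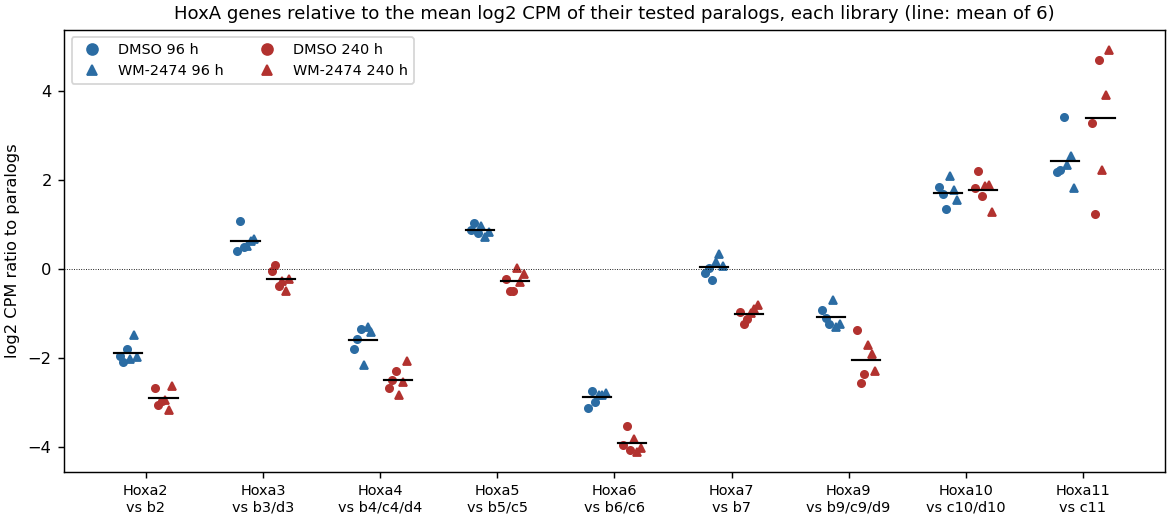
Log2 ratio of each HoxA gene to the mean log2 CPM of its tested paralogs in each library, at 96 h (blue) and 240 h (red), circles for DMSO and triangles for WM-2474, with a line at the mean of 6. For Hoxa2, Hoxa3, Hoxa5, Hoxa6, Hoxa7 and Hoxa9 the red and blue points do not overlap; for Hoxa10 and Hoxa11 they do.

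Outside HoxA most changes were small. In HoxB, Hoxb9 was at 101, 109, 111, 98.2, 108 and 106 CPM at 96 h and at 107, 119, 121, 105, 126 and 129 CPM at 240 h. The ranges overlapped at the number 1 libraries, and the log2 fold change was 0.16 ± 0.05 (adjusted p = 0.00722 by edgeR's quasi-likelihood test), which scaling by library totals reduced to 0.03 with the call lost; it was also lost with the libraries numbered 1 and 2 only (adjusted p up to 0.538). Hoxb6, another thoracic gene, was at 27.2, 30.2, 35.0, 27.6, 31.3 and 38.7 CPM and then at 26.8, 27.2, 27.6, 25.0, 29.5 and 23.4 CPM. Its 96 h libraries were the more spread, and the log2 fold change of -0.24 ± 0.08 (adjusted p = 0.0279) lost its call in 9 of 21 alternatives (adjusted p up to 0.400), 7 of which left out 1 library each: replicate 3 of any group or replicate 1 or 2 of DMSO or 1 of WM-2474 at 240 h. Hoxb5, which acts in the shoulder region and the enteric neural crest, was at 9.80, 10.6, 11.7, 9.51, 14.03 and 14.2 CPM and later at 9.35, 11.7, 10.6, 8.35, 9.90 and 10.4 CPM. In WM-2474 its change was -0.38 ± 0.14 (adjusted p = 0.0485), a call lost in 14 of 22 alternatives, DESeq2 and limma-voom among them (adjusted p up to 0.227). In DMSO its change was -0.01 ± 0.14, and the difference between treatments did not pass (adjusted p = 0.977). The other 5 tested HoxB genes, Hoxb2, Hoxb3, Hoxb4, Hoxb7 and Hoxb8, had averaged log2 fold changes from -0.10 to 0.08 and did not pass; that of Hoxb2 changed sign with library totals.

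In HoxC the genes changed in different directions. Hoxc6, the gene with the highest level, was at 70.1, 68.6, 78.1, 72.6, 73.8 and 78.5 CPM at 96 h and at 72.2, 71.3, 76.6, 72.5, 67.1 and 72.3 CPM at 240 h. The ranges lay over each other, and the log2 fold change was -0.03 with a 95% interval of -0.12 to 0.06. Hoxc8, which patterns the lower rib cage, went from 53.0, 54.5, 60.1, 58.6, 56.5 and 58.0 CPM to 66.8, 56.9, 69.4, 74.2, 69.1 and 70.5 CPM. All but DMSO replicate 2 at 240 h exceeded every library of 96 h, and the log2 fold change was 0.26 ± 0.05 (adjusted p = 5.72e-05 by edgeR's quasi-likelihood test). Hoxc4, at the anterior end of the cluster, was at 15.9, 18.4, 23.2, 18.8, 21.3 and 20.6 CPM and then at 13.9, 15.5, 13.4, 19.9, 11.7 and 13.6 CPM. Its WM-2474 replicate 1 at 240 h stood with the libraries of 96 h, and the log2 fold change was -0.44 ± 0.12 (adjusted p = 0.00718). Its call was lost with the libraries numbered 1 and 2 only (adjusted p = 0.145).

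The posterior genes Hoxc10 and Hoxc11, used in the lumbar region and the hindlimb, also fell. Hoxc10 went from 27.4, 21.7, 19.5, 25.3, 25.3 and 19.2 CPM to 20.1, 17.8, 15.6, 21.2, 21.2 and 15.7 CPM. The times overlapped, with a log2 fold change of -0.34 ± 0.11 (adjusted p = 0.0199 by edgeR's quasi-likelihood test), a call lost without WM-2474 96 h replicate 1 or 2 or DMSO 240 h replicate 3 (adjusted p up to 0.0765). Hoxc11 was at 1.89, 1.49, 0.518, 1.66, 1.43 and 1.11 CPM and later at 0.566, 1.49, 0.161, 1.30, 0.305 and 0.116 CPM, a spread at 240 h from under the floor of its library to a level met at 96 h. Its log2 fold change of -1.36 ± 0.52 (adjusted p = 0.0497) lost its call in 13 of 21 alternatives (adjusted p up to 0.169), DESeq2 and RLE size factors among them. The call held without DMSO 96 h replicate 3, DMSO 240 h replicate 2 or WM-2474 240 h replicate 1, and was lost without any 1 of the other 9 libraries. Hoxc5, Hoxc9 and Hoxc13 had log2 fold changes of -0.13, -0.12 and 0.29 and did not pass.

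Averaged over both treatments, HoxD held the largest fall and the largest rise among the tested Hox genes. Hoxd8, the most abundant HoxD gene and one of the trunk, was at 13.7, 12.7, 14.4, 13.6, 11.5 and 12.5 CPM at 96 h and at 19.5, 16.4, 18.0, 18.3, 15.3 and 17.7 CPM at 240 h. Every library of 240 h lay above every library of 96 h, and the rise was 1.33-fold (0.42 ± 0.07, adjusted p = 4.30e-05 by edgeR's quasi-likelihood test). It was the one tested Hox gene to rise without overlap, as 12.9% of all tested genes did. Hoxd10, known for its part in hindlimb motor neurons, was at 0.944, 1.14, 1.04, 0.931, 1.26 and 1.11 CPM and then at 0.566, 0.272, 0.281, 0.759, 0.305 and 0.347 CPM. The times did not overlap, and the fall was 2.68-fold (-1.42 ± 0.30, adjusted p = 3.81e-04), although several libraries of 240 h were at or near the floor of 3 counts. Both calls were kept in all 21 alternatives.

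These genes lie on either side of Hoxd9, which did not pass. Upstream stretches of both, printed in the same way because the genes changed in opposite directions, held 3 and 9 CpGs; that of Hoxd10 precedes a start within its annotated span.
Hoxd8 (chr2:74704495-74704614, plus strand): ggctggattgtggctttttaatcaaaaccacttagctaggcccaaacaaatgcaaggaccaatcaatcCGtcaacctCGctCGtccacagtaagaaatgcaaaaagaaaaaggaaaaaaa
Hoxd10 (chr2:74691771-74691890, plus strand): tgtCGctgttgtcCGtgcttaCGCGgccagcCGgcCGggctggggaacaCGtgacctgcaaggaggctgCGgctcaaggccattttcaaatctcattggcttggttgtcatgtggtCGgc

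The remaining HoxD genes with a test, Hoxd3, Hoxd4 and Hoxd9, had log2 fold changes of -0.07, 0.10 and 0.03 and did not pass; the signs of Hoxd4 and Hoxd9 turned with library totals. Hoxd3 shares 62.4% and Hoxd4 52.3% of its annotated exon bases with other genes on the same strand, so that their counts are uncertain. Hoxd11, Hoxd13, Hoxb13 and Hoxc12, below the test's filter, had 54, 35, 33 and 26 counts over the 6 libraries of 96 h and 10, 10, 8 and 4 over the 6 of 240 h.

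**Figure D4:**
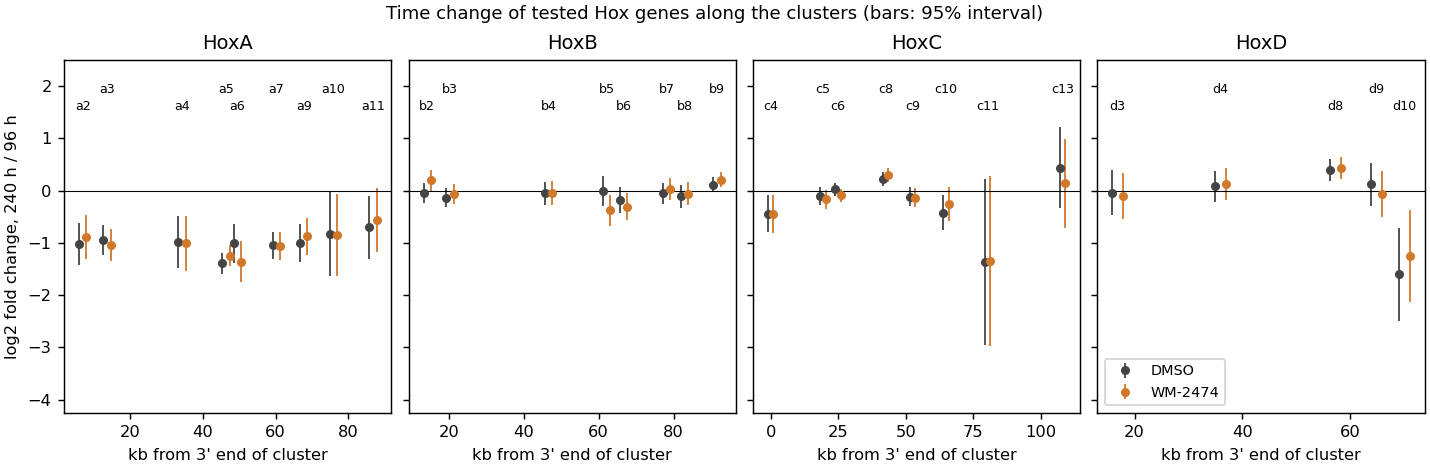
Log2 fold change of 240 h against 96 h for tested Hox genes, placed by distance in kilobases from the 3′ end of the cluster, in DMSO (grey) and WM-2474 (orange), with 95% intervals. In HoxA the points lie between -1.39 and -0.56 from Hoxa2 onward in both treatments, and in HoxB they lie near 0.

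The time changes were alike in sign in both treatments for 26 of the 31 tested genes. In DMSO 9 Hox genes fell and 2 rose, against 17.3% and 17.5% of all tested genes, and in WM-2474 9 fell and 3 rose, against 14.8% and 15.9%. The genes that fell in both were Hoxa2, Hoxa3, Hoxa4, Hoxa5, Hoxa6, Hoxa7, Hoxa9 and Hoxd10, and those that rose in both were Hoxc8 and Hoxd8. Of these, Hoxd10 lost its call in 2 of 22 alternatives in DMSO (adjusted p up to 0.184) and in 6 in WM-2474 (DESeq2 among them, up to 0.176), and Hoxc8 in 4 in DMSO (up to 0.259) and in 1, library totals, in WM-2474 (0.0511). Hoxd8 lost it in 1 in WM-2474, with the libraries numbered 1 and 2 only (0.0513), and Hoxa4 in 1 in DMSO. Hoxc10 passed in DMSO and not in WM-2474 (-0.42, adjusted p = 0.0495), a call lost in 11 of 22 alternatives, RLE size factors among them (up to 0.273). Hoxb5 and Hoxb9 passed in WM-2474 and not in DMSO; the call of Hoxb9 was lost in 5 of 22 alternatives (up to 0.355). For Hoxa5 the log2 fold change was -1.39 ± 0.10 in DMSO and -1.24 ± 0.10 in WM-2474. The test of the difference between treatments gave 0 calls among the 31 genes, 0 at an unadjusted p under 0.05, and 0 with DESeq2 or limma-voom; 0.0% of all tested genes passed it and 4.63% had an unadjusted p under 0.05.

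WM-2474 and DMSO did not separate any Hox gene at either time. At 96 h 0 of 31 passed edgeR's quasi-likelihood test, as 0.0% of all tested genes did, and 0 had an unadjusted p under 0.05 (2.1% of all). The log2 fold changes ran from -0.18 to 0.23, and the smallest p by edgeR's quasi-likelihood test was that of Hoxb7 (-0.18, 95% interval -0.38 to 0.02, adjusted p = 1). At 240 h 0 of 31 passed, against 0.0296% of all tested genes, and 0 had an unadjusted p under 0.05 (8.14% of all). Values ran from -0.26 to 0.43, with the smallest p by edgeR's quasi-likelihood test at Hoxc8 (0.13, 95% interval -0.01 to 0.27, adjusted p = 0.626). For Hoxa5 the difference was 0.01 with an interval of -0.16 to 0.18 at 96 h and 0.15 with an interval of -0.08 to 0.38 at 240 h. Intervals were widest for Hoxc11, at -1.17 to 1.35 and -1.89 to 2.11. DESeq2 and limma-voom also gave 0 Hox calls at both times, and these intervals bound a difference rather than show that the treatments act alike. The comparisons between times and between treatments share libraries.

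Noncoding genes inside the clusters changed too. Of 14 annotated genes between the ends of the clusters other than Hox genes, 6 could be tested, 4 fell and 2 rose, against 23.6% and 23.0% of all tested genes. In HoxA, Mira, a noncoding RNA between Hoxa6 and Hoxa7 (chr6:52214491-52215288), was at 7.26, 9.84, 9.84, 8.78, 9.50 and 9.31 CPM at 96 h and at 3.26, 5.16, 4.05, 4.77, 6.02 and 5.78 CPM at 240 h. The times did not overlap, and the log2 fold change was -0.91 ± 0.11 (adjusted p = 2.59e-07 by edgeR's quasi-likelihood test). Hoxaas3, Hoxa11os and 5730596B20Rik also fell, with log2 fold changes of -1.17, -0.64 and -1.02. In HoxB, Gm53, a noncoding gene between Hoxb13 and Hoxb9 (chr11:96251660-96264484), went from 25.1, 25.4, 25.1, 24.4, 27.0 and 28.0 CPM to 34.4, 36.1, 39.4, 33.0, 37.0 and 35.0 CPM. It rose without overlap (0.49 ± 0.05, adjusted p = 4.18e-08). Exons of Hoxaas3 lie opposite 20.4% of the exon bases of Hoxa7 and those of Hoxa11os opposite 35.0% of those of Hoxa11, while Hoxa5, Hoxa6 and Hoxa10 overlap 0% with other genes; the strand setting of the counting was not given in the sources used here.

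Mir196a-1, the gene of a microRNA between Hoxb9 and Hoxb13, rose as well (0.70 ± 0.14, adjusted p = 2.48e-04 by edgeR's quasi-likelihood test), from 2.60 to 4.32 CPM at 96 h to 3.82 to 6.47 CPM at 240 h, ranges that overlapped. Such reads come from longer transcripts, since libraries of this kind do not measure the mature microRNA. Its relative Mir196b in HoxA stayed at or below 0.152 CPM and was not tested. The family is known to silence Hox messages, and both mature forms are shown because their seeds (bases 2 to 8, in capitals) are the same.
miR-196a-5p: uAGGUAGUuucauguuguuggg
miR-196b-5p: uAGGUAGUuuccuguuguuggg

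Of the 3 nearest genes on each side of the clusters, 13 could be tested, 3 rose and 3 fell (23.1% each, near the shares of all tested genes), with log2 fold changes from -0.61 to 0.34. Beyond the anterior end of HoxA, Skap2, an adaptor protein, fell by 0.30 on the log2 scale (adjusted p = 3.18e-05 by edgeR's quasi-likelihood test). Beyond the anterior end of HoxB, Snx11 rose by 0.34 (adjusted p = 2.15e-05). Evx1 and Evx2, homeobox genes just beyond the posterior ends of HoxA and HoxD, had 0 counts in all 12 libraries.

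Genes that work with or above Hox genes were read from lists of known members, to be set against the 23.6% of all tested genes that fell and the 23.0% that rose. Of 9 cofactor genes, which encode the Pbx, Meis and Pknox proteins that bind DNA with Hox proteins, 6 fell (66.7%) and 0 rose, with a median log2 fold change of -0.28; Meis2 had -0.37 (adjusted p = 8.39e-08) and Meis1 -0.42 (adjusted p = 1.94e-06 by edgeR's quasi-likelihood test). Of 25 tested chromatin and upstream regulators, 8 fell (32%), 3 rose and 14 did not pass, with a median of -0.04. Men1, of the Trithorax-type complex, had -0.34 and Phc1, of Polycomb, -0.45, while Eed, also of Polycomb, had 0.38 and the demethylase Kdm6b 0.25. Kat6a had 0.08 (adjusted p = 0.183) and did not pass.

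Of 14 tested genes of the retinoic acid pathway, 5 fell (35.7%), 2 rose and 7 did not pass, against 23.6% of all tested genes that fell and 23.0% that rose. Aldh1a3, which makes retinoic acid, rose by 1.97 (adjusted p = 9.91e-13 by edgeR's quasi-likelihood test), and Dhrs3, which limits it, by 0.43. Crabp1, a retinoic acid carrier protein, fell by 0.85 (adjusted p = 3.53e-14) and the retinol dehydrogenase gene Rdh10 by 0.33. Of 39 tested transcription factors that mark body position outside the clusters, 18 fell (46.2%), 6 rose and 15 did not pass, with a median of -0.53. Alx1 had -1.72, while Pax3 had 1.45 and En1 0.37. The treatments gave 0 calls in these 4 lists at 96 h and at 240 h.

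Some posterior genes also varied by replicate number. In all 4 groups the library numbered 3 was the lowest for Hoxa10, Hoxc10 and Hoxc11, a pattern shown by 1.36% of all tested genes, and the library numbered 1 the highest for Hoxa9 and Hoxa10 (1.6%). Hoxa10 was at 18.2, 20.6, 11.9 and 14.5 CPM in the number 1 libraries of the groups DMSO 96 h, WM-2474 96 h, DMSO 240 h and WM-2474 240 h, and at 11.4, 13.49, 6.54 and 5.67 CPM in those numbered 3. Hoxa11 was lowest in number 3 in 3 groups only, with DMSO 240 h as the exception. The number 1 libraries were in turn lowest in all 4 groups for Hoxb5, Hoxb7 and Hoxb9 (2.16%) and the number 2 libraries for Hoxd8 (2.04%). Without the libraries numbered 3, 11 Hox genes fell and 2 rose in the averaged time comparison, against 16.1% and 16.6% of all tested genes. The calls of Hoxb6, Hoxb9, Hoxc4 and Hoxc11 were lost.

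**Figure D5:**
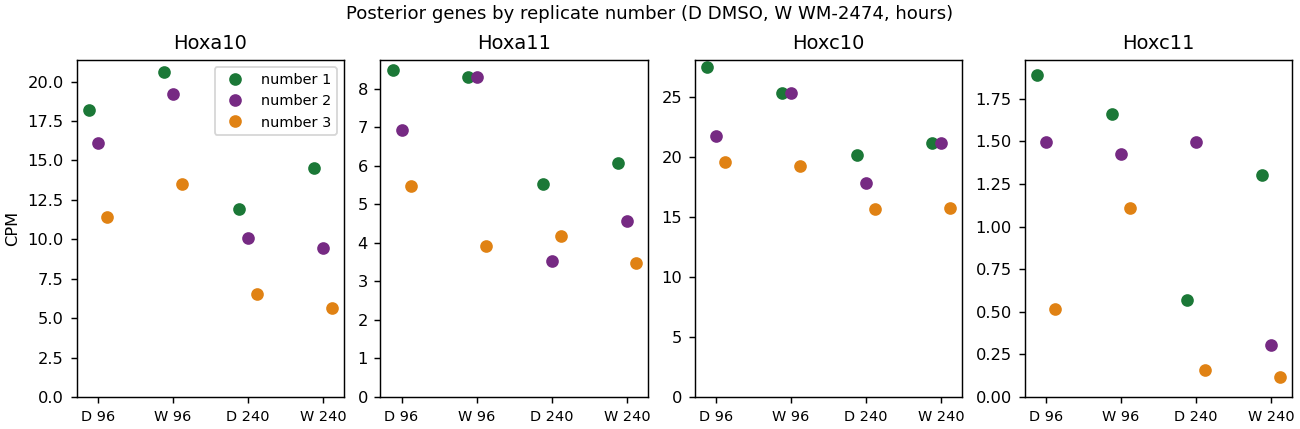
CPM of the posterior genes Hoxa10, Hoxa11, Hoxc10 and Hoxc11 by group (D DMSO, W WM-2474; 96 or 240 h) and replicate number. For Hoxa10, Hoxc10 and Hoxc11 number 3 (orange) is the lowest in all 4 groups.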

How the data were processed

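Per the labels, RNA of 12 cultures was extracted with a column kit and made into libraries with a stranded mRNA kit. The deposited values are raw read counts for each gene, not normalized, beside the gene length in bases that the authors gave. The submitters' processing notes name featureCounts and mm10. Aligner, annotation, tool versions, and the settings for strand and multiple mapping are not given in the sources used here. All 12 count columns were matched to samples by their labels and 0 stayed unmatched. Of 27179 entries, 874 had no gene identifier (0.547 to 0.648% of a library) and were left out; symbols came from RefSeq GRCm38.p6, which named 25275 identifiers (96.1%). Coordinates are those of RefSeq and exon overlaps those of GENCODE on GRCm38.

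After filterByExpr on the 4 groups 13499 genes were tested, with TMM factors of 0.943 to 1.05. The quasi-likelihood model of edgeR 4.0.16 had a mean for each of the 4 groups over 12 libraries (common biological coefficient of variation 5.22%), and two-sided p-values were adjusted by Benjamini-Hochberg over all tested genes, with a threshold of 0.05. CPM values use TMM-scaled totals. An exact permutation of 3 against 3 libraries cannot go below p = 0.1. Replicates of a group differed by 2.05 to 5.25 times the sampling variance (chi-square over its degrees of freedom), so none was a re-sequencing of another library. The ratio cannot tell separate cultures from separate libraries of the same culture. Nothing in the labels says whether the replicates of a group came from separate embryos, so p-values measure the spread between these libraries. R 4.3.3, limma 3.58.1, DESeq2 1.42.0, Python 3.11.15, pandas 2.3.3, scipy 1.17.1 and matplotlib 3.10.9 were used.

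Same-numbered DMSO and WM-2474 libraries deviated together at 96 h (correlations over all tested genes 0.301, 0.235 and 0.191). Correlations were lower at 240 h (0.0971, 0.114 and 0.0397) and between times (-0.00783 to 0.132). Over the tested Hox genes they were 0.726, 0.413 and 0.452 at 96 h and 0.394, -0.267 and 0.79 at 240 h. Between times the Hox values were 0.307, 0.515 and 0.775 in DMSO and 0.439, -0.302 and 0.514 in WM-2474. The numbers were taken as pairs at 96 h, but only the replicate block used them. The main model left them out, so its p-values treat the 12 libraries as separate.

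Values in every library are given for Hox genes that passed a time comparison and for the gene with the highest level of each cluster; of other lists, the members of smallest p are named, up to 2 in each direction, and members inside or beside a cluster at will. Kat6a was named outside this rule, and 1 tested Hox gene and 2 genes of the other lists are not reported here. Members and lists were chosen with earlier results of these data known. Alternatives changed the scaling (library totals, RLE), the filter (none, or above 1 CPM in 3 or more libraries), the tool (DESeq2, limma-voom with quality weights) or the design (a replicate block, fits of only the libraries compared, each replicate left out); fits without DMSO 240 h replicates 1 and 2 and without the libraries numbered 3, and the replicate block with only the libraries compared, were chosen after seeing the data. In the fit without DMSO 240 h replicates 1 and 2 the lone DMSO library at 240 h is assumed to vary like the other groups.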

Additional observations from a re-analysis of the deposited data

How the results depend on the processing

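Scaling by library totals gave 14 lower and 1 higher Hox gene in DMSO and 14 lower and 1 higher in WM-2474. It put 32.5% of all tested genes lower and 8.82% higher in DMSO, and 32.5% and 8.13% in WM-2474. Hoxc6 was then at 44.3 CPM per kb in DMSO at 240 h against 46.1. Without a filter on low counts 14 genes were lower in WM-2474, against 10.6% of all genes tested in that fit. Some of the 14 were among the 8 genes too low for the main test. With only the libraries numbered 1 and 2, 1 gene was higher in DMSO and 1 in WM-2474, against 10.1% and 10.3% of all tested genes. Leaving out single replicates gave 11 to 14 lower genes in the averaged comparison, against 21% to 23.1% of all tested genes. In DMSO it gave 7 to 11 lower and 1 to 2 higher, against 12.7% to 17.5% and 13.7% to 18%. In WM-2474 it gave 7 to 12 lower and 2 to 3 higher, against 10.9% to 15.3% and 12.8% to 16.1%. The count of 1 came from leaving out DMSO 96 h replicate 1 or DMSO 240 h replicate 3. The replicate block gave 14 lower genes in WM-2474 and 15 in the averaged comparison, against 15.5% and 24% of all tested genes. Across times the labels tie samples only by replicate number. In the pairs at 96 h, the block left 0 Hox calls. The cause was not tested, and no called gene turned its direction in any alternative. Depth limits the 8 genes too low to test, and Hoxc11 and Hoxd10 at 240 h, where counts neared the floor.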

Other observations

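A pair of transcription factors of the hindlimb, outside the Hox clusters, were low in the libraries numbered 3, as Hoxa10, Hoxc10 and Hoxc11 were; they were picked after their values had been seen. Pitx1, which gives hindlimbs their identity, was at 2.59, 1.79, 0.883 and 1.16 CPM in the number 3 libraries of DMSO 96 h, WM-2474 96 h, DMSO 240 h and WM-2474 240 h, and at 5.75 to 14.9 CPM in the other 8 libraries. Tbx4, which acts with it, was at 1.04, 2.39, 0.802 and 0.463 CPM in number 3 and at 2.17 to 5.62 CPM in the others. Tbx5, the forelimb relative of Tbx4, was at 8.73, 7.34, 6.86 and 8.09 CPM in number 3 and at 5.94 to 9.58 CPM in the others, so it was not low there. Foxd1, of kidney stroma and other mesenchyme, was lowest in number 1 in all 4 groups, at 10.03, 12.1, 6.37 and 5.53 CPM, against 20.8 to 29.3 CPM in the other libraries of 96 h and 6.71 to 13.4 CPM in those of 240 h.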
